A study of Rattus norvegicus with 8 samples.

Results

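Measured here in hypothalamic tissue were 10 genes for dopamine synthesis, packaging, reuptake, reception and breakdown: Th, Ddc, Gch1, Qdpr, Slc18a2, Slc6a3, Nr4a2, Drd2, Drd5 and Maob. Some of them, such as Slc18a2 and Maob, are also used by other cell types. The 10 genes were found on the array by gene name among its non-control probes, which gave 14 probes of 30367. All 10 genes passed the filter on dim probes and were among the 16574 genes tested. RNA came from the hypothalamus of Wistar dams that were lactating, 7 days after birth of the litter. There were 4 control dams and 4 dams exposed to TCDD, with 1 array for each dam. TCDD is a dioxin that binds the aryl hydrocarbon receptor. Neither its dose, route and time nor the ages of the dams were stated in the labels. The series asks how the dioxin affects hypothalamic mRNAs of rat mothers.

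Dopamine is made from tyrosine by tyrosine hydroxylase and then by an amino acid decarboxylase, loaded into vesicles by a monoamine transporter, and taken back up after release by a transporter of the outer membrane. In the hypothalamus, dopamine neurons of the arcuate nucleus release dopamine towards the pituitary, where it holds back prolactin through D2 receptors. Prolactin is high in lactation, and it acts back on these neurons. Dopamine neurons of the neighbouring midbrain project to the striatum and carry more of the outer membrane transporter than most hypothalamic ones. Whole tissue was measured, so fewer cells of a type and less RNA per cell cannot be told apart.

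All values are log2 signals: the log2 of the scanner's processed intensity, minus the 75th percentile of that array, so that 0 is the brightness of the 75th percentile. A level is compared only with the same probe on other arrays. That percentile ran from 756 to 1080 before scaling, and each array had 61.7% to 66.7% of its probes well above background. Correlations between arrays across probes lay between 0.988 and 0.996. Each group lay on 1 slide of its own, so slide and group cannot be told apart. The p-values measure the spread between dams, and the small number of arrays limits their precision.

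The tissue carried the markers of hypothalamus, with 10 of 10 tested, and their summed level was 7.74 to 8.34 in control and 7.55 to 8.06 in TCDD dams. A summed level adds linear signals before the log2, so the brightest genes of a list weigh most. Markers of noradrenaline neurons were mostly dark: Dbh and Phox2a, an enzyme and a transcription factor that define these cells, were well above background on 0 arrays, while Pnmt was so on 8 and Slc6a2 on 7. The serotonin markers Slc6a4, Fev and Gata3 were above background on 0 arrays, Tph2 on 1, Htr1a on 2, and Tph1 and Gata2 on 6 each, and 0 of 7 serotonin markers entered the test.

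The promoters of Th, Slc18a2 and Slc6a3 are shown because of results below: Th and Slc6a3 moved together from dam to dam. Slc18a2 was the gene whose groups did not overlap on the brightest probe. Each is the 250 bases before the RefSeq start in the rat build GRCr8, read 5′ to 3′ along the gene. Capitals mark the cAMP response element TGACGTCA, the site of CREB family factors. The Th sequence is chr1:207508219-207508468 on the minus strand, the Slc18a2 sequence is chr1:268399771-268400020 on the plus strand, and the Slc6a3 sequence is chr1:31578963-31579212 on the minus strand.
Th: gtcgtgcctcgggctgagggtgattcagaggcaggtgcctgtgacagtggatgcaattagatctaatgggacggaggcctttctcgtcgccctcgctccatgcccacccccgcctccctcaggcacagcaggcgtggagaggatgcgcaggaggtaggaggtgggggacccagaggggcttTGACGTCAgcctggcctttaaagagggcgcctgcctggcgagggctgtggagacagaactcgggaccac
Slc18a2: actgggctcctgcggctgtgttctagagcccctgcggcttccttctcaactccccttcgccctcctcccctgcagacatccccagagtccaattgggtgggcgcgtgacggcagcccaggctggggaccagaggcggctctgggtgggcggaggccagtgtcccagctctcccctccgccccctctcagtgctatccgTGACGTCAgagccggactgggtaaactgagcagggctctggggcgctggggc
Slc6a3: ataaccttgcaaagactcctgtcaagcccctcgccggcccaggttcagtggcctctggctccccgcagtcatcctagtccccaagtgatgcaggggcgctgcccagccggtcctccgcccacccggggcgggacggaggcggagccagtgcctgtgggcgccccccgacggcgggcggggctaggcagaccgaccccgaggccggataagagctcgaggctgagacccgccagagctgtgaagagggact

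All 10 genes were matched to a promoter in the RefSeq table, with 12 entries since Ddc has several starts. TGACGTCA, which reads the same on both strands, was found in 2 of 10 genes, at -69 to -62 in Th and at -52 to -45 in Slc18a2. It occurs in 531 of 33469 rat promoter windows of the same length (1.59%). The NR4A element AAAGGTCA, or TGACCTTT on the other strand, was found in 1 gene, at -73 to -66 before 1 start of Ddc, against 1.24% of all windows. The core of the dioxin response element GCGTG, or CACGC on the other strand, was found in 5 of 10 genes, namely Th, Slc18a2, Qdpr, Drd5 and Maob, against 25.9% of all windows. A match of letters is a description and does not show that a factor binds there.

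Between the groups, 0 of the 10 genes passed the test of 16574 genes (limma adjusted p under 0.05), in an array where 4 genes, or 0.0241%, passed. In TCDD dams the mean was lower for 8 of the 10 genes and higher for Qdpr and Drd5, while 48.5% of all genes were lower. The median log2 fold change of the 10 genes was -0.17, against 0.00 over all genes tested. At an unadjusted p under 0.05, 2 of 10 were lower (Slc18a2 and Nr4a2), where 2.82% of all genes were, and 1 of 10 was higher (Drd5), where 7.95% of all genes were. The count of lower genes at that level was 4 without control replicate 4, 5 with array weights, and 1 without control replicate 1, 2 or 3 or TCDD replicate 3 or 4. In the authors' deposited value table the split of all such genes differed, with 39.7% of them lower against 26.2% here, and 2 of the 10 genes were then lower and 0 higher.

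**Figure D1:**
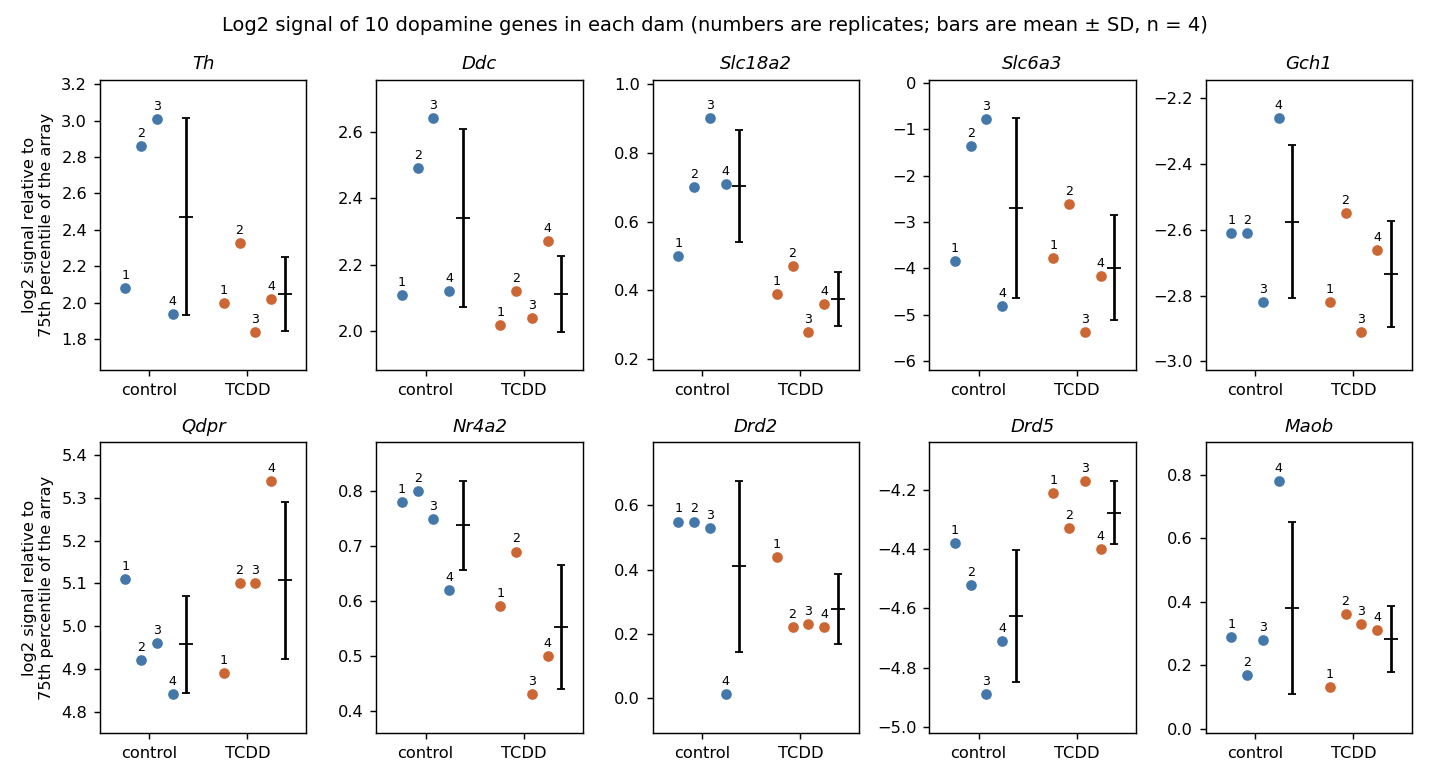
Log2 signal of the 10 genes, relative to the 75th percentile of the array, in each dam (points, numbered by replicate) with mean ± SD (n = 4 per group); every panel has its own axis, which does not start at 0. Control replicates 2 and 3 stand at the top for Th, Ddc and Slc6a3. Among the brightest probes shown, Slc18a2 alone has no overlap between control and TCDD dams.

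Th, tyrosine hydroxylase, is the rate-limiting enzyme of dopamine synthesis. Its log2 signal was 2.08, 2.86, 3.01 and 1.94 in control replicates 1 to 4 and 2.00, 2.33, 1.84 and 2.02 in TCDD replicates 1 to 4. Control replicates 2 and 3 were the highest of the 8 arrays, and the other 2 control dams lay within the TCDD range, so the groups overlapped. Control dams averaged 2.47 ± 0.54 and TCDD dams 2.05 ± 0.20 (SD, n = 4 per group). The log2 fold change was -0.42 (SE 0.25, 95% interval -1 to 0.15), and limma gave an adjusted p of 0.628. The Th probe lies on chromosome 1 at 203164254 to 203164313 on the minus strand (rn4, the build of the array's design). Its last 30 bases are shown because they hold the letters of the common polyadenylation signal, here in capitals, which most mRNAs carry near their end.
Th probe: ctgattattctctcAATAAAggaaggaaag

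Ddc, the decarboxylase that makes dopamine from L-DOPA, had 2 probes, 8017 bases apart on chromosome 14. The brighter probe (92698673 to 92698732, minus strand) gave 2.11, 2.49, 2.64 and 2.12 in control and 2.02, 2.12, 2.04 and 2.27 in TCDD dams. As for Th, control replicates 2 and 3 were highest, and the groups overlapped. Its log2 fold change was -0.22 (SE 0.13, limma adjusted p = 0.616), and -0.13 without control replicate 3. The other probe (92706750 to 92706809) gave -1.35, -1.15, -0.99 and -1.56 in control and -1.62, -1.66, -1.64 and -1.46 in TCDD dams, a log2 fold change of -0.33 (SE 0.12, adjusted p over probes 0.371). The probes followed each other over the 8 arrays with r = 0.925.

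Gch1 and Qdpr serve the cofactor of tyrosine hydroxylase, tetrahydrobiopterin: GTP cyclohydrolase, the Gch1 product, starts its synthesis, and the Qdpr product, dihydropteridine reductase, restores it after use. Gch1 gave -2.61, -2.61, -2.82 and -2.26 in control and -2.82, -2.55, -2.91 and -2.66 in TCDD dams, giving -0.16 as the log2 fold change (SE 0.13; limma adjusted p = 0.735). Control replicate 4 was the highest array for Gch1, where Th was near its lowest, and without that dam the log2 fold change of Gch1 was -0.06. Leaving out control replicate 3 gave -0.25, and leaving out TCDD replicate 3 gave -0.10. Qdpr gave 5.11, 4.92, 4.96 and 4.84 in control and 4.89, 5.10, 5.10 and 5.34 in TCDD dams, a log2 fold change of 0.15 (SE 0.10, adjusted p = 0.679), and of 0.07 without TCDD replicate 4. The groups overlapped in both genes. The Gch1 probe is on chromosome 15 at 23024229 to 23025738 on the minus strand, so its 60 bases span 1510 bases of genome, and the Qdpr probe is on chromosome 14 at 70755521 to 70755580 on the plus strand. The other 4 cofactor enzymes listed, Pts, Spr, Pcbd1 and Gchfr, had log2 fold changes of -0.04 to 0.05, and 0 of 4 passed.

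Slc18a2, the vesicular monoamine transporter that loads dopamine and other monoamines into vesicles, was the gene among the 10 whose groups did not overlap on the brightest probe. The second probe of Nr4a2, given below, had no overlap either. Slc18a2 gave 0.50, 0.70, 0.90 and 0.71 in control and 0.39, 0.47, 0.28 and 0.36 in TCDD dams. Every TCDD dam lay below every control dam, as in 1.72% of all genes, and the closest were control replicate 1 and TCDD replicate 2. The means were 0.70 ± 0.16 and 0.37 ± 0.08 (SD, n = 4 per group), or 1.25-fold more signal in control dams. The log2 fold change was -0.33 (SE 0.087, 95% interval -0.53 to -0.13), with an unadjusted p of 0.00514 and a limma adjusted p of 0.22, so it did not pass. It ranked 386 of 16574 genes by p. Over 22 alternatives the fold change ran from -0.40 to -0.23 and the adjusted p from 0.101 to 0.585. The probe lies on chromosome 1 at 265824461 to 265824520 on the plus strand.

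Histamine neurons of the tuberomammillary nucleus also use Slc18a2 and Maob. Their enzyme Hdc gave 1.45, 1.30, 1.51 and 2.17 in control and 1.65, 1.78, 1.70 and 1.89 in TCDD dams, giving 0.15 as the log2 fold change (SE 0.18; limma adjusted p = 0.839). The 4 histamine markers other than Slc18a2 and Maob had a summed level of 1.66 to 2.35 in control and 1.92 to 2.13 in TCDD dams. Those levels overlapped, and their part in the Slc18a2 values was not tested. Red blood cell genes were also unequal: the summed level of 5 such genes was 6.77 to 8.18 in control and 7.55 to 8.42 in TCDD dams. At an unadjusted p under 0.05, 4 of the 5 were higher in TCDD dams, where 7.95% of all genes were, and 0 passed in limma. The part of blood in the group differences was not tested.

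Slc6a3, the dopamine transporter of the outer membrane, varied more between dams than any other of the 10 genes. Its brighter probe gave -3.85, -1.36, -0.77 and -4.81 in control and -3.78, -2.61, -5.37 and -4.17 in TCDD dams. Control replicates 2 and 3 were far above the rest, TCDD replicate 2 followed, and the groups overlapped. From lowest to highest dam the signal spanned 4.61 on the log2 scale, or 24.3-fold. The means were -2.70 ± 1.94 and -3.98 ± 1.14 (SD, n = 4 per group), and the log2 fold change of -1.29 had an SE of 0.96 and a 95% interval of -3.50 to 0.93 (limma adjusted p = 0.72). A second probe, 5218 bases away, gave -5.56, -3.40, -2.86 and -5.99 in control and -5.69, -4.73, -6.87 and -5.87 in TCDD dams. Control replicates 3 and 2 and TCDD replicate 2 were again the highest and TCDD replicate 3 the lowest. The probes correlated at r = 0.991 over the 8 arrays, although the second was above background on 6 arrays and dim on TCDD replicates 1 and 3. With normexp background correction the log2 fold changes of the 2 probes were -0.96 and -0.61, in place of -1.29 and -1.34. Their size thus depended on the background correction. Both probes lie on the minus strand of chromosome 1, at 30515549 to 30515608 and 30520827 to 30520886. The first 30 bases of each are shown because these separate stretches of the gene gave the same pattern over the dams.
Slc6a3 brighter probe: tatgtgtgaatcgaacttactctcaaaatg
Slc6a3 second probe: tgccatcacacctgagaaagaccatcagct

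The group differences of Th, Slc6a3 and Ddc depended on control replicates 2 and 3. Those were the 2 highest arrays for each of these genes, so leaving them out was bound to lower the control means. Without these 2 dams, an alternative chosen after seeing the data, the log2 fold change of Th was 0.04 in place of -0.42. That of Slc6a3 was 0.35 in place of -1.29, and that of Ddc 0.00 in place of -0.22. Drd2 was also at 0.00 in place of -0.13, but its control replicate 1 (0.55) was level with replicates 2 and 3 (0.55 and 0.53). With 2 control dams left, its low control replicate 4 (0.01) weighed more. Slc18a2 was then at -0.23 (limma adjusted p = 0.585). Of the 10 genes 6 were then lower and 4 higher, with a median of 0. Leaving out 1 dam at a time gave -0.60 to -0.25 for Th, -1.99 to -0.64 for Slc6a3 and -0.40 to -0.26 for Slc18a2.

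Nr4a2, or Nurr1, is the nuclear receptor that midbrain dopamine neurons need to form and to express Th and Slc6a3. Its brighter probe gave 0.78, 0.80, 0.75 and 0.62 in control and 0.59, 0.69, 0.43 and 0.50 in TCDD dams. The highest TCDD dam, replicate 2, lay above the lowest control dam, replicate 4, so the groups overlapped. The log2 fold change was -0.18 (SE 0.071, unadjusted p = 0.0324, limma adjusted p = 0.397). A second probe 458 bases away gave -0.79, -0.82, -0.84 and -0.84 in control and -1.20, -0.99, -1.30 and -1.32 in TCDD dams. All TCDD dams lay below all control dams there, with a log2 fold change of -0.38 (SE 0.077, unadjusted p = 0.00105, limma adjusted p over probes 0.145). The probes lie on the minus strand of chromosome 3 at 38866834 to 38866893 and 38867352 to 38867411, and correlated at r = 0.898.

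Drd2 encodes the D2 receptor, the autoreceptor of dopamine neurons and the receptor of pituitary lactotrophs. Each of its 2 probes is printed in 10 spots per array. The brighter probe gave 0.55, 0.55, 0.53 and 0.01 in control and 0.44, 0.22, 0.23 and 0.22 in TCDD dams, giving -0.13 as the log2 fold change (SE 0.13; limma adjusted p = 0.797). Control replicate 4 lay below all TCDD dams, and the other control dams lay above all of them. Without that dam the log2 fold change was -0.27 (unadjusted p = 0.00601, limma adjusted p = 0.181), and without control replicate 1, 2 or 3 it was -0.09. The SD among the 10 spots of an array was 0.0178 to 0.0697, against 0.27 between control dams, so spot noise was smaller than the distance of that dam from the others. The second probe, 1077 bases away, gave -5.41, -5.41, -5.49 and -5.73 in control and -5.60, -5.93, -5.57 and -5.57 in TCDD dams (log2 fold change -0.16, SE 0.11, adjusted p over probes 0.687). Its spots had an SD of 0.16 to 0.348 on an array, and an array's value is the mean over them. The probes lie on the plus strand of chromosome 8 at 52707670 to 52707729 and 52706533 to 52706592, with r = 0.72 between them.

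Drd5, the gene of a D1-like receptor that raises cAMP, gave -4.38, -4.52, -4.89 and -4.71 in control and -4.21, -4.33, -4.17 and -4.40 in TCDD dams. Only control replicate 1 reached into the TCDD range. The log2 fold change was 0.35 (SE 0.11, 95% interval 0.09 to 0.61, unadjusted p = 0.0145, limma adjusted p = 0.307). With normexp background correction it was 0.089 (adjusted p = 0.952). The probe lies on chromosome 14 at 77768060 to 77768119 on the minus strand. Of the other dopamine receptors, Drd1a and Drd3 were above background on 0 arrays, and Drd4 had a log2 fold change of 0.09 (SE 0.16, adjusted p = 0.904).

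Maob, the monoamine oxidase of astrocytes and of serotonin and histamine neurons, gave 0.29, 0.17, 0.28 and 0.78 in control and 0.13, 0.36, 0.33 and 0.31 in TCDD dams. Control replicate 4 was the highest array and the groups overlapped. The log2 fold change was -0.10 (SE 0.13, limma adjusted p = 0.862), and without control replicate 4 it was 0.035. That dam also had the highest Hdc signal of the 8 and the lowest Drd2 signal. The astrocyte markers, 7 of 7 tested, had summed levels of 6.39 to 6.65 in control and 6.49 to 6.58 in TCDD dams. The Maob probe lies on chromosome X at 17657030 to 17657089 on the plus strand. Among other breakdown genes listed, Maoa was at 0.04, Aldh2 at -0.11 and Akr1b1 at -0.11, and none of these passed.

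**Figure D2:**
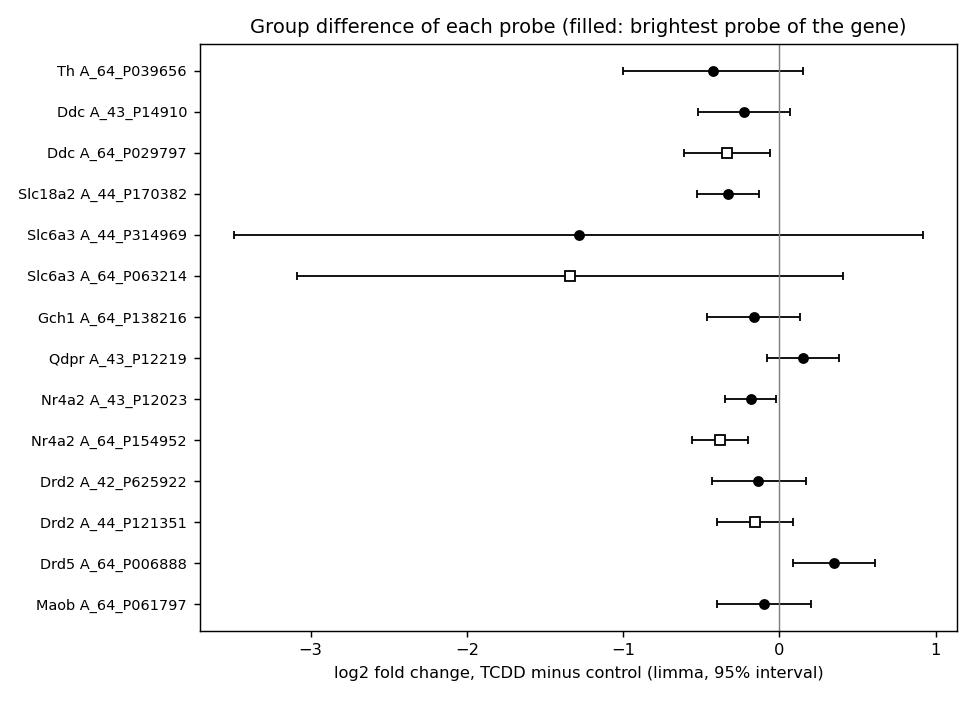
Log2 fold change (TCDD minus control) of each of the 14 probes with its 95% interval from limma; filled circles mark the brightest probe of a gene and open squares its second probe. The interval of Slc18a2 runs from -0.53 to -0.13 and that of the brighter Slc6a3 probe from -3.49 to 0.92, and no probe passed the test after adjustment.

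Some of the 10 genes moved together from dam to dam. Over the 8 arrays 45 pairs were compared, with exact permutation p-values over 40320 pairings and Benjamini-Hochberg adjustment over the 45. Of these, 2 pairs passed by Pearson's r (adjusted p under 0.05) and 0 by Spearman's rho, while 10 and 7 pairs stood at an unadjusted p under 0.05. The passing count was 1 without control replicate 1, 2 or 3 or TCDD replicate 3, 6 without control replicate 4, and 0 without control replicates 2 and 3 together. In all, 20 of the 45 pairs had an r above 0.

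**Figure D3:**
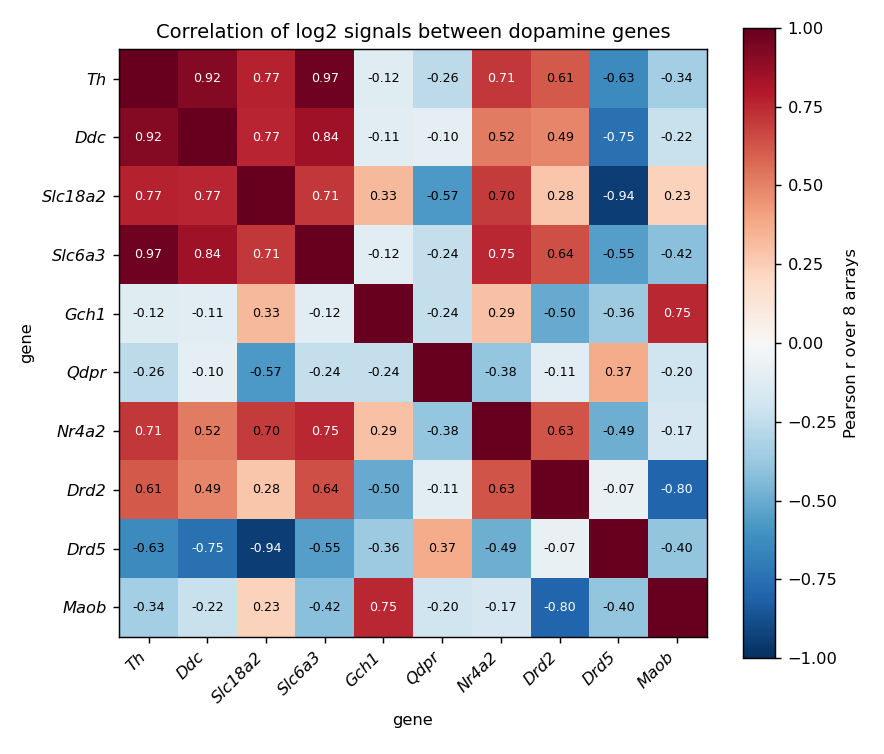
Pearson's r of the log2 signals over the 8 arrays for each pair of the 10 genes (colour and printed value; red above 0, blue below 0). Th, Ddc, Slc18a2, Slc6a3 and Nr4a2, grouped here after the values were seen, form a red block with r of 0.52 or more. In that block only Th with Slc6a3 passed after adjustment. Its weakest pair, Ddc with Nr4a2, had r = 0.213 as deviations from the group means. Slc18a2 against Drd5 is the strongest negative pair at -0.94.

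Th and Slc6a3 were the closest pair, with r = 0.975 (exact permutation p = 9.92e-05, adjusted p = 0.00446) and rho = 0.929 (exact permutation p = 0.00223, adjusted p = 0.1). With normexp background correction r was 0.933 with an adjusted p of 0.067, so the call was lost there by exact permutation. The relation held within each group, which is also within each slide, at r = 0.995 over the 4 control and 0.962 over the 4 TCDD dams. As deviations from the group means it was r = 0.975 (exact permutation p = 0.00694, adjusted p = 0.312). Without the 2 arrays farthest from the median of Th, control replicates 2 and 3, it was 0.963 over the other 6 (exact permutation p = 0.00556, adjusted p = 0.156). In these main values r thus did not rest on those 2 dams. With normexp, r of Th and Slc6a3 over those 6 arrays was not computed. En1, a gene described below, then had r = 0.949 with Slc6a3 but 0.425 with Th. For deviations from group means, or for 6 arrays, the permutations are too few for a single pair among 45 to pass.

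The link of Ddc to this pair did rest on them. Th and Ddc had r = 0.919 over 8 arrays (rho 0.786; exact permutation p = 0.00794 and 0.0279, adjusted p = 0.102 and 0.209), with 0.987 within control and 0.25 within TCDD dams. Without control replicates 2 and 3 r was 0.235. Ddc and Slc6a3 had r = 0.844 over 8 arrays (rho 0.619; exact permutation p = 0.0114 and 0.115, adjusted p = 0.102 and 0.466) and 0.144 over 6. Th and Slc18a2 had r = 0.773 (rho 0.595; exact permutation p = 0.0225 and 0.132, adjusted p = 0.153 and 0.466), with 0.684 within control and 0.956 within TCDD dams, and 0.154 without the same 2 dams. Gch1 and Qdpr, the cofactor genes, had r of -0.12 and -0.26 with Th (rho 0.119 and 0.0476; exact permutation p for r = 0.783 and 0.51, adjusted p = 0.839 and 0.695).

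Slc18a2 and Drd5 ran opposite to each other, with r = -0.938 (exact permutation p = 0.000893, adjusted p = 0.0201) and rho = -0.857 (exact permutation p = 0.0107, adjusted p = 0.209). Within the groups r was -0.938 over the 4 control and -0.469 over the 4 TCDD dams, and without the 2 arrays farthest from the median of Slc18a2 it was -0.827 (exact permutation p = 0.0431). With normexp background correction it was -0.359, and with quantile normalization or the authors' deposited table it was -0.884 and -0.852, with adjusted p-values of 0.665, 0.0664 and 0.0952. Drd2 and Maob also ran opposite, with r = -0.795 (rho -0.81; exact permutation p = 0.0102 and 0.0218, adjusted p = 0.102 and 0.209), -0.984 within control and -0.978 within TCDD dams. Without the 2 arrays farthest from the median of Drd2 their r was -0.499.

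Across the whole array, genes were ranked by how closely their deviations from the group means followed those of Th or Slc6a3 over the 8 arrays, among 10974 genes with a symbol and above background on all arrays. For Slc6a3 the first was En1 (r = 0.989), a homeobox factor of midbrain dopamine neurons, followed by Th (0.975), Tyro3 (0.942), Robo2 (0.941) and Sspn (0.941). For Th the first was Slc6a3 (0.975), then En1 (0.972), Ulk2 (0.964), Tex264 (0.945) and Tslp (0.937). Most of these ran over a narrow range, such as Tyro3 from 2.42 to 2.68 and Tex264 from 3.04 to 3.18. Among the genes listed, Aldh1a1, an aldehyde dehydrogenase of ventral midbrain dopamine neurons, ranked 9 for Slc6a3 (r = 0.912) and 60 for Th (0.835). Ddc ranked 18 for Th (0.888). The other midbrain markers tested did not all follow: with Slc6a3, Ntsr1 had r = 0.691 (rank 240) and Sox6 r = -0.33 (rank 8374). Hypothalamic markers lay on both sides of 0, such as Oxt at 0.659 and Nkx2-1 at -0.684 with Slc6a3, and 0.745 and -0.759 with Th. These are descriptions over 8 arrays that share their scaling, with no test.

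En1 was the gene outside the 10 that followed Slc6a3 most closely. It gave -4.77, -2.52, -2.34 and -4.97 in control and -4.55, -3.87, -5.84 and -4.94 in TCDD dams, high in control replicates 2 and 3, then in TCDD replicate 2, and lowest in TCDD replicate 3. Its log2 fold change was -1.15 (SE 0.70, limma adjusted p = 0.642), and -0.65 with normexp background correction. The levels of En1 and Slc6a3 correlated at r = 0.988 over 8 arrays and 0.961 over the 6 without control replicates 2 and 3. For En1 and Th r was 0.979 and 0.92, and 0.425 over those 6 arrays with normexp. Aldh1a1 gave 1.37, 1.74, 1.99 and 1.18 in control and 1.26, 1.87, 0.78 and 1.03 in TCDD dams, with TCDD replicate 2 above control replicate 2.

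**Figure D4:**
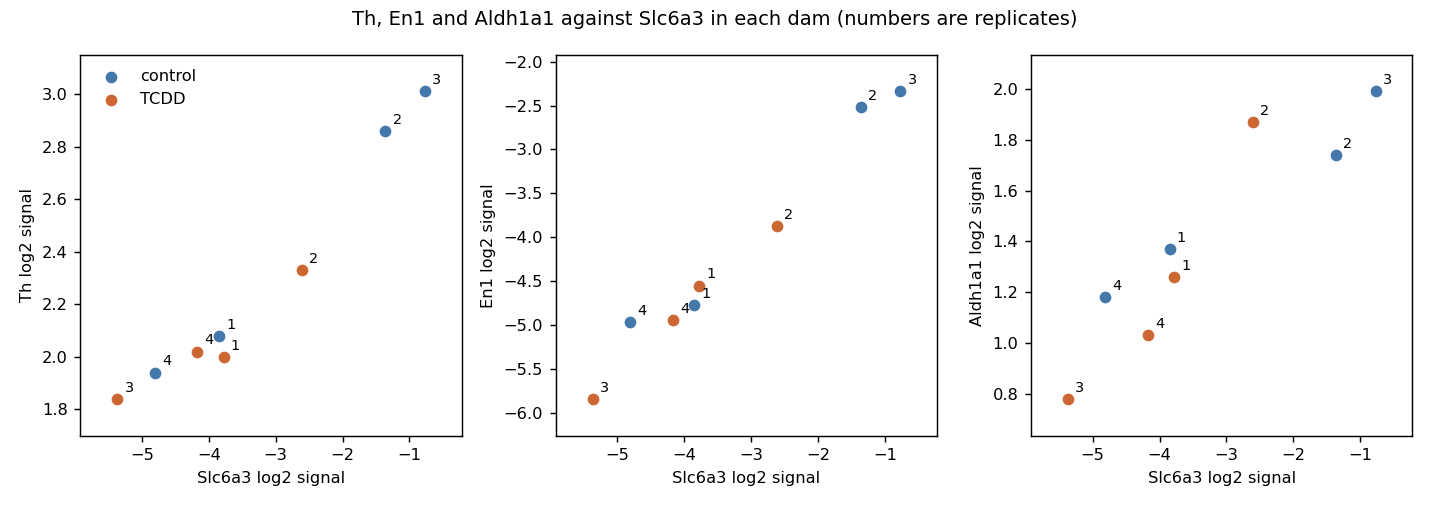
Log2 signal of Th, En1 and Aldh1a1 (vertical axes) against that of Slc6a3 (horizontal axes), one point per dam numbered by replicate. Control replicates 2 and 3 lie at the upper right of the Th and En1 panels, TCDD replicate 2 comes next, and TCDD replicate 3 (Slc6a3 at -5.37) lies at the lower left of all 3 panels.

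The other markers of midbrain dopamine neurons differed in how many arrays measured them. Pitx3, a factor that these neurons need, was above background on 2 control and 0 TCDD arrays, with scanner values of -6.42, -5.69, -5.96 and -6.70 in control and -8.08, -7.04, -8.00 and -7.64 in TCDD dams. Control replicates 2 and 3 were highest there too, and TCDD replicate 2 was the highest TCDD dam, on a probe that was dim on 6 arrays. Chrna6, a nicotinic receptor subunit, was above background on 3 control and 0 TCDD arrays, with values of -4.46, -5.37, -4.65 and -6.58 in control and -5.87, -6.07, -7.41 and -5.73 in TCDD dams, highest in control replicates 1 and 3. Foxa2, a factor of the ventral midline, was above on 4 control and 3 TCDD arrays, with -0.94 as the log2 fold change (SE 0.52; limma adjusted p = 0.591), and -0.29 with normexp background correction. Ntsr1 and Sox6 had log2 fold changes of -0.07 and 0.02. Of 6 midbrain markers other than Slc6a3, 4 were tested. Their summed level was 1.49 to 2.28 in control and 1.18 to 2.11 in TCDD dams, so the groups overlapped. That sum mostly follows Aldh1a1, the brightest of the 4, and hides the range of En1, from -5.84 to -2.34 over the dams. The part of midbrain tissue in the values of Th and Slc6a3 was not tested. Striatal markers, 6 of 8 tested, ranged from 3.96 to 4.09 in control and 4.00 to 4.11 in TCDD dams.

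**Figure D5:**
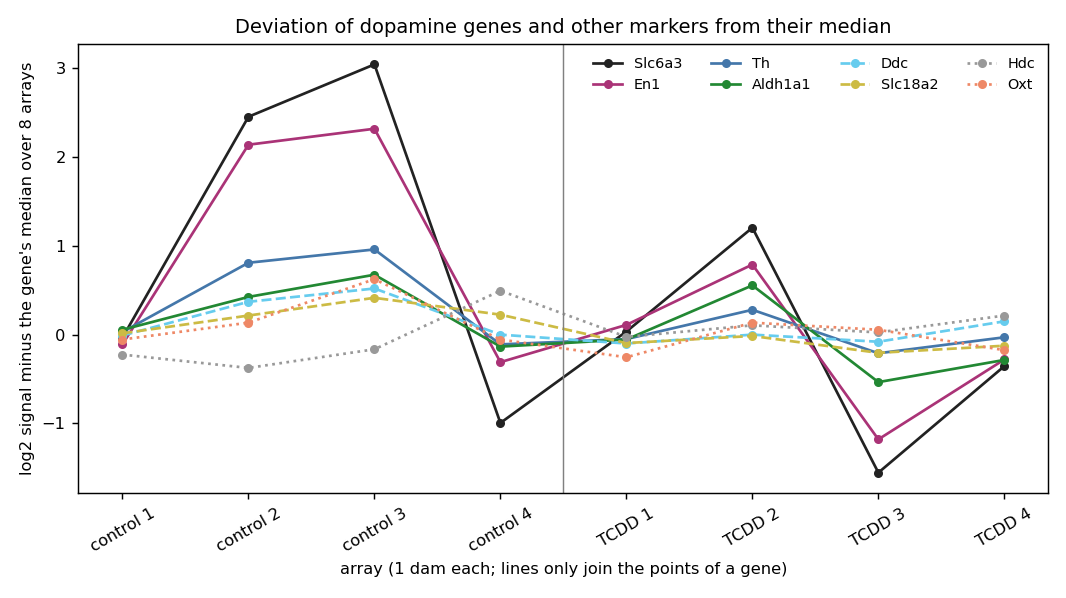
Log2 signal minus the gene's own median over the 8 arrays, for Slc6a3, En1, Th, Aldh1a1, Ddc and Slc18a2, with the histamine enzyme Hdc and the hypothalamic hormone Oxt beside them; lines only join the points of a gene. Slc6a3 and En1 share their peaks at control replicates 2 and 3 and TCDD replicate 2 and their lowest point at TCDD replicate 3, while Hdc stands highest at control replicate 4.

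The wider dopamine pathway was read from 7 lists of 57 genes beside the 10, of which 56 were on the array by name and 50 were tested. Of the 50, 21 were higher and 29 lower in TCDD dams, 0 passed, and the median log2 fold change was -0.01 against 0.00 over all genes. At an unadjusted p under 0.05 there were 3 higher (where 7.95% of all genes were) and 2 lower (2.82%). In 3 of the 50 the groups did not overlap, against 7.05% of all genes. They were Gnal, with TCDD dams above (5.33% of all genes), and Stat5b and Akr1b1, with TCDD dams below (1.72%).

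Nr4a1 and Nr4a3, the immediate-early relatives of Nr4a2, were among the 3 with higher values. Nr4a1 gave 0.07, -0.11, 0.73 and -0.66 in control and 1.07, 0.59, 0.38 and 0.57 in TCDD dams, with control replicate 3 inside the TCDD range (log2 fold change 0.64, SE 0.28, limma adjusted p = 0.462). Nr4a3 had a log2 fold change of 0.42 (SE 0.16, adjusted p = 0.364), again with overlap. These signs are opposite to that of Nr4a2, and none of the 3 genes passed. Gnal, the G protein subunit that couples D1-like receptors to adenylyl cyclase in striatum, gave -1.13, -1.13, -1.05 and -1.10 in control and -0.82, -1.04, -0.77 and -0.85 in TCDD dams, without overlap (log2 fold change 0.23, SE 0.067, adjusted p = 0.242). The other 9 listed signal proteins were at an unadjusted p above 0.05.

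Ret, the receptor of the GDNF family that supports dopamine neurons, gave -2.04, -1.68, -1.63 and -1.89 in control and -2.49, -2.09, -1.94 and -2.18 in TCDD dams. Control replicate 1 lay within the TCDD range, and the log2 fold change was -0.36 (SE 0.13, limma adjusted p = 0.36). Stat5b carries the prolactin signal in arcuate dopamine neurons, and it gave -3.76, -4.16, -4.17 and -4.01 in control and -4.38, -4.28, -4.19 and -4.28 in TCDD dams. The groups were separate by a narrow gap (log2 fold change -0.26, SE 0.097, adjusted p = 0.381). Among the other arcuate genes tested, the prolactin receptor Prlr was at -0.03, the neuropeptides Gal at -0.03 and Penk at 0.02, Ghrh at 0.32 (SE 0.15, adjusted p = 0.522) and the GABA enzyme Gad1 at -0.01. Of 12 arcuate genes listed 11 were tested and 0 passed.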

How the data were processed

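Total RNA of 8 rat hypothalami was labelled with Cy3 and hybridised to 1-colour Agilent arrays, per the labels' protocols. The deposited files hold linear spot intensity from Agilent Feature Extraction 10.7.1.1, background-subtracted per the file headers. The authors' deposited value table, also intensity, was an alternative. Probe positions are those of the design (rn4); no annotation of that build was used, so exons are not given.

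The signal was log2 of the processed intensity minus the array's 75th percentile over 42877 non-control spots. Spots flagged as outliers were dropped, spots of a probe averaged, and probes kept if every array of 1 group or both had them well above background (19102 of 30367). A gene was its brightest probe. limma 3.58.1 in R 4.3.3 (lmFit, eBayes, 2-sided, group as the only term) gave p-values, adjusted by Benjamini-Hochberg over 16574 genes with a threshold of 0.05. Correlations used 2-sided exact permutation over pairings (Python 3.11.15, numpy 2.4.6, matplotlib 3.10.9 for figures). On simulated data of 16574 genes with 200 changed, the test recovered 62.7%, 91% and 92.4% of genes changed by 0.5, 1 and 2 (log2) and made 15 false calls.

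The 10 genes and all lists were chosen with earlier results of these data known, among them a value of Th and of Slc18a2. The rule for named genes took the 10 genes with every probe, listed genes at an unadjusted p under 0.05, markers of other cell types, and the 5 genes most like Th and Slc6a3; other listed genes are examples chosen after their values were seen. Alternatives changed the background correction, scaling, source of values, filter, choice of probe, variance model, array weights, replicate number and arrays used. Some listed genes are not reported here.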

Additional observations from a re-analysis of the deposited data

Results flagged for a closer look

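Dam by dam, 28 groups of 4 values (14 probes in 2 groups) were searched for a single array far from the others, by the gap to the nearest array as a share of the group's range. The limit was Dixon's 95% critical value, which chance passes in about 1 of 20 groups, and 3 groups were past it, all of them Drd2. On the brighter Drd2 probe, control replicate 4 was the lowest control dam with a gap of 0.968 of the range, and TCDD replicate 1 was the highest TCDD dam with a gap of 0.927. On the second Drd2 probe, TCDD replicate 2 was the lowest TCDD dam with a gap of 0.903. Control replicate 4 was also lowest on the second Drd2 probe, at 0.742, and highest for Maob, at 0.816, both under the limit.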

How the results depend on the processing

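Of the 10 genes, 0 passed under any of 22 alternatives, with a smallest adjusted p of 0.101 (array weights) to 0.585 (without control replicates 2 and 3). The number of genes passing over the whole array was 4, and 20 with normexp, 27 with median scaling, 34 with trended robust variance, 67 with array weights, 2 without both replicate 1 arrays, and 0 with no filter, with the replicate block, or without control replicates 2 and 3. With 1 array left out it was 0 to 8. Deviations of same-numbered arrays correlated at 0.444 for replicate 1, and at -0.051, -0.00495 and -0.0126 for replicates 2, 3 and 4. Both replicate 1 arrays also had the lowest 75th percentiles, 756 in control and 806 in TCDD. What they share was not tested. The replicate block is given for its counts alone: 509 genes lower and 1630 higher at an unadjusted p under 0.05. Directions reversed for Maob without control replicate 4 (0.035, against -0.167 to -0.046 with any other single array left out) and for Th (0.038) and Slc6a3 (0.349) without control replicates 2 and 3. The number of correlated pairs, 2, was 0 with normexp, 1 with quantile normalization, 1 with the authors' table, 0 for deviations from group means, 0 without the 2 farthest arrays, 0 without control replicates 2 and 3, and 1 to 6 with 1 array left out. For deviations and for 6 arrays a single pair among 45 cannot pass; other causes were not tested. Array weights were highest for control replicates 2 (1.87) and 3 (1.74). Signal over background limits the dimmest probes, and leaving out control replicates 2 and 3 leaves 2 control dams.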

Other observations

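Pituitary transcripts varied from dam to dam in an order other than that of the dopamine genes. Cga, the common subunit of pituitary glycoprotein hormones, gave log2 signals of 0.77, -4.14, 1.04 and 4.93 in control and 0.93, 5.25, -2.42 and 4.63 in TCDD dams. Prl, the gene of prolactin, and Gh1, the gene of growth hormone, were above background on control replicate 2 and TCDD replicates 2, 3 and 4 alone. Control replicates 2 and 3, which shared the highest Th and Slc6a3 values, thus stood apart from each other for Cga, Prl and Gh1.

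In the 4 genes with 2 probes, which lie 458 bases (Nr4a2), 1077 bases (Drd2), 5218 bases (Slc6a3) and 8017 bases (Ddc) apart, the group difference had the same sign on both probes. Both probes of a gene read the same 8 RNAs, so the shared sign is not independent support. The second Slc6a3 probe passed the filter through the control group alone, with 4 control and 2 TCDD arrays above background.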
